A study of Mus musculus with 16 samples.

Results

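Gene expression in cells labelled as osteoblasts (OBs) was compared between mice lacking miR-9-1 and wild-type controls. There were 4 libraries of each genotype, 8 of the 16 libraries of the series. Libraries were put in these groups by their labels. Letters A to D name the libraries of wild-type mice, and letters E to H name those of deficient mice. The deficient mice carried a disruption of the microRNA gene Mir9-1 made by CRISPR/Cas9 editing, and the controls were wild-type mice. No transgene, Cre driver or drug is named for either group, and the labels give no strain, sex, age, sort gate or number of founder lines. The other 8 libraries came from sorted mesenchymal stem cells (MSCs) whose labels carry the same animal numbers, and are used only to set the OB values beside them. RNA of the sorted cells was poly(A)-selected and sequenced, and values are the deposited normalized counts per gene. The title of the series places the comparison in the control of lymphocyte formation by osteoblasts.

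miR-9 is a microRNA made from several loci. Its mature strand guides silencing complexes to messenger RNAs whose 3′ untranslated region (UTR) pairs with the seed, bases 2 to 8 of the microRNA, and it is best known from neural development. Osteoblasts make the collagen I matrix of bone and mineralize it with phosphatases that release phosphate in matrix vesicles. They lie beside the marrow, where stromal cells supply blood progenitors with factors such as Cxcl12, Kitl and Il7. Chondrocytes, the cells of cartilage, sit next to them in growing bone and make collagen II.

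The 2 mature strands of the Mir9-1 hairpin are shown because they define what the edited locus can make. They are printed from RefSeq (GRCm38.p6), 5′ to 3′, with the seed in capitals, and lie on the plus strand at chr3:88215613-88215635 and chr3:88215652-88215673.
miR-9-5p: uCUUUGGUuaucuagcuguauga
miR-9-3p: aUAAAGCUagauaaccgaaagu
The 5p strand is also made from Mir9-2 on chromosome 13 and Mir9-3 on chromosome 7, so the edit removes 1 of 3 sources of the same mature sequence. Poly(A) libraries hold primary transcripts and not mature microRNAs. Of Mir9-1 itself, wild-type A, B, C and D held 7, 16, 0 and 4 reads, and deficient E, F, G and H held 0, 3, 0 and 0. The wild-type and deficient ranges thus overlapped, and the gene lay below the filter and was not tested. A count of 0 allows up to 3 reads at 95% confidence (counting error only), or 1.95 to 2.36 normalized counts in these libraries.

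Each OB library held 15543693 to 18962771 reads. The OB label was checked against marker genes. Osteoblast genes were well read in wild-type OB libraries (Col1a1 88879 to 198771, Runx2 1544 to 1662), but lower than in wild-type MSC libraries. Bone matrix genes stood at a mean log2 level of 10.18 to 10.74, against 12.34 to 12.47 in wild-type MSC libraries. Mineralization genes stood at 9.52 to 10.14 against 10.71 to 11.055, and osteoblast transcription factors at 8.08 to 8.57 against 9.97 to 10.23. These genes thus did not set the OB libraries above the MSC libraries. The cartilage collagen gene Col2a1 ranked 1, 3, 2 and 1 by count in A, B, C and D, counts not being divided by gene length. Blood progenitor genes stood at a mean log2 level of 10.49 to 10.68 in wild-type and 10.29 to 10.63 in deficient OB libraries, against 8.06 to 8.40 in the MSC libraries. Ptprc, the pan-leukocyte gene CD45, lay between 2447 and 3352 in all 8. All OB libraries thus held blood progenitor and cartilage RNA beside osteoblast RNA. Each OB library also held both Xist, which is made in female cells (3719.5 to 8053), and the Y-linked gene Ddx3y (649 to 1939). Xist was lowest and Ddx3y highest in A, E and F. The MSC libraries separated instead: A, E and F held 291 to 392 of Xist and 1848 to 3355 of Ddx3y, and the other 5 held 11937 to 14158 and 29.8 to 78.1. A, E and F thus leaned to the male type in both cell types, but every OB library held both genes while the MSC libraries separated. A shared number is not taken to mean the same mouse or a single mouse. Male-type MSC libraries were 1 of 4 in wild-type and 2 of 4 in deficient mice, and the part of this in the results was not tested. In bulk samples, fewer cells of a type and less RNA per cell cannot be told apart.

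Deficient libraries differed among themselves in stromal RNA. The 20 marrow stroma genes stood at a mean log2 level of 10.70 in E and 11.34 in F, above every wild-type library (9.23 to 9.96), at 9.83 in G, within that range, and at 8.55 in H, below it. H also had the lowest bone matrix level, 7.52. Values without E and F, and without H, are therefore given with the main gene groups.

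**Figure D1:**
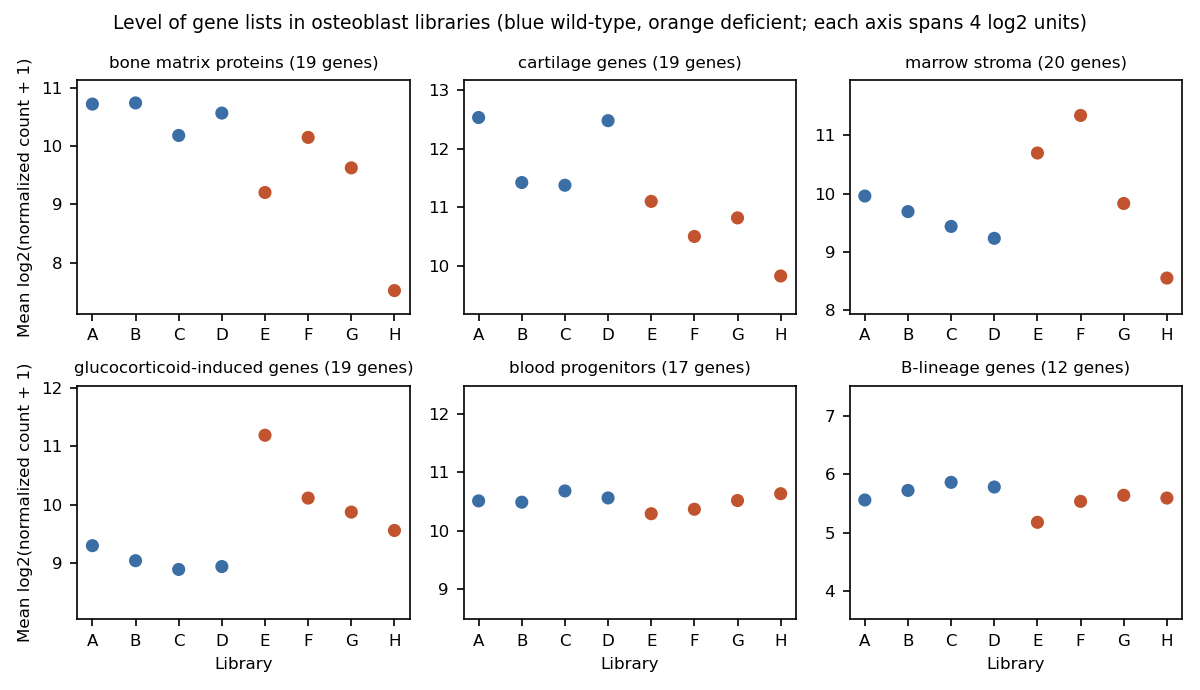
Mean log2(normalized count + 1) of 6 gene lists in each of the 8 OB libraries, blue for wild-type A to D and orange for deficient E to H; every axis spans 4 log2 units. Bone matrix and cartilage levels are lower in all 4 deficient libraries than in any wild-type one, glucocorticoid-induced levels are higher in all 4, and marrow stroma levels run from 8.55 in H to 11.34 in F.

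Of 14229 genes tested between genotypes, 4 passed (0.0281%) at an adjusted p under 0.05 (limma, Benjamini-Hochberg), 3 higher in the deficient libraries (0.0211%) and 1 lower (0.00703%). At an unadjusted p under 0.05 there were 1274 genes (8.95%), 594 higher (4.17%) and 680 lower (4.78%). The median log2 fold change of all genes tested was -0.02, with 6239 genes above 0 and 7990 below. Fold changes are deficient minus wild-type on the log2(normalized count + 1) scale, ± their standard error, which understates the change of low genes. The 3 genes that rose were Penk, Fmo1 and Cytl1. Phospho1 was the gene that fell, and most of its exonic sequence is shared with a second gene, Abi3.

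Penk encodes proenkephalin, the precursor of the enkephalin opioid peptides (chromosome 4, 4133531 to 4138819, minus strand, GRCm38, protein coding). Its normalized count was 91.1, 89.7, 85.9 and 49.2 in A to D and 3007, 1141, 2113 and 928 in E to H. The lowest deficient library was thus far above the highest wild-type one. The mean rose from 79.0 ± 19.99 to 1797 ± 957 (SD, n = 4), a 22.8-fold ratio and a log2 fold change of 4.37 ± 0.36 (limma adjusted p = 0.00269). The level in the MSC libraries was 494 to 716 in wild-type and 2424 to 6772 in deficient mice, with a log2 fold change of 2.93 ± 0.28. The difference between the OB and MSC effects, 1.44 ± 0.50, did not pass (limma adjusted p = 0.333).

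No other member of the opioid system passed. Of 14 listed genes, 6 were tested and Penk passed. The peptide-processing genes Cpe, a carboxypeptidase, and Pam, a peptide-amidating enzyme, had log2 fold changes of -0.48 ± 0.22 and 0.25 ± 0.22 (limma adjusted p = 0.559 and 0.759). Levels of the convertase gene Pcsk1, which cleaves prohormones, stayed under 12 normalized counts in each OB library, and those of the delta receptor gene Oprd1 ran from 0 to 18.8, both below the filter.

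Fmo1 encodes a flavin-containing monooxygenase, an enzyme that oxidizes nitrogen and sulfur in small molecules (chromosome 1, 162829561 to 162866610, minus strand). Its normalized count was 46.4, 38.4, 35.4 and 20.6 in A to D and 499, 386, 469 and 283 in E to H, with no overlap. The mean rose from 35.2 ± 10.8 to 409 ± 96.9 (n = 4), an 11.6-fold ratio, by 3.53 ± 0.27 on the log2 scale (limma adjusted p = 0.00269). In MSC libraries the log2 fold change was 1.47 ± 0.31, and the difference of 2.05 ± 0.45 between the cell types did not pass (limma adjusted p = 0.223). Fmo2, its neighbour in the gene family, stood at 29.9, 35.8, 28.6 and 16.2 in A to D against 1805, 227, 168 and 124 in E to H. These groups did not overlap either, but the spread among deficient libraries was wide and the gene did not pass (3.47 ± 0.73, limma adjusted p = 0.182). Fmo5 differed by -0.08 ± 0.18, and Fmo4 lay below the filter.

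Cytl1 encodes a secreted cytokine-like protein of cartilage (chromosome 5, 37735519 to 37739820, plus strand). Its normalized count was 1869.8, 2236, 2418 and 3006 in A to D and 10080, 7326, 6440.3 and 6937 in E to H. All deficient libraries lay above all wild-type ones, and the mean rose from 2383 ± 474 to 7696 ± 1630.2 (n = 4), a 3.23-fold ratio, by 1.69 ± 0.16 on the log2 scale (limma adjusted p = 0.00814). The call was lost without wild-type B (limma adjusted p = 0.0531) and in a fit of all 16 libraries (0.179). In MSC libraries the groups overlapped, from 3005 to 12207 in wild-type and from 3486 to 20650 in deficient mice (log2 fold change 0.84 ± 0.52), while the difference between the effects did not pass (0.85 ± 0.62, limma adjusted p = 0.621).

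Phospho1 encodes the phosphatase that releases phosphate inside matrix vesicles at the start of mineralization (chromosome 11, 95824499 to 95832140, plus strand). Its normalized count was 1160.4, 615, 479 and 1261 in A to D and 110.2, 159.6, 131 and 90.9 in E to H. The lowest wild-type library was well above the highest deficient one. The mean fell from 879 ± 389 to 123 ± 29.4 (n = 4), a 7.15-fold ratio, with a log2 fold change of -2.74 ± 0.31 (limma adjusted p = 0.0244). The call was lost without wild-type A (0.1001), B (0.0599) or D (0.0908) and without deficient G (limma adjusted p = 0.117). In MSC libraries the log2 fold change was -1.60 ± 0.24, and the difference of -1.14 ± 0.42 between the cell types did not pass (limma adjusted p = 0.349).

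The identity of the Phospho1 signal is uncertain. Abi3, which encodes an adaptor protein of actin regulation, lies on the opposite strand (95830074 to 95842476), and the annotated exons of the genes share 1590 bases, 83.2% of the exonic bases of Phospho1 and 39.7% of those of Abi3. The labels name a library kit without saying that it keeps strand. Abi3 read 1244, 691, 555 and 1326 in A to D, close to Phospho1 in each, and 167, 253, 241 and 225 in E to H. It did not pass (-2.02 ± 0.28, limma adjusted p = 0.0742). Reads of the shared stretch cannot be assigned to either gene here.

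**Figure D2:**
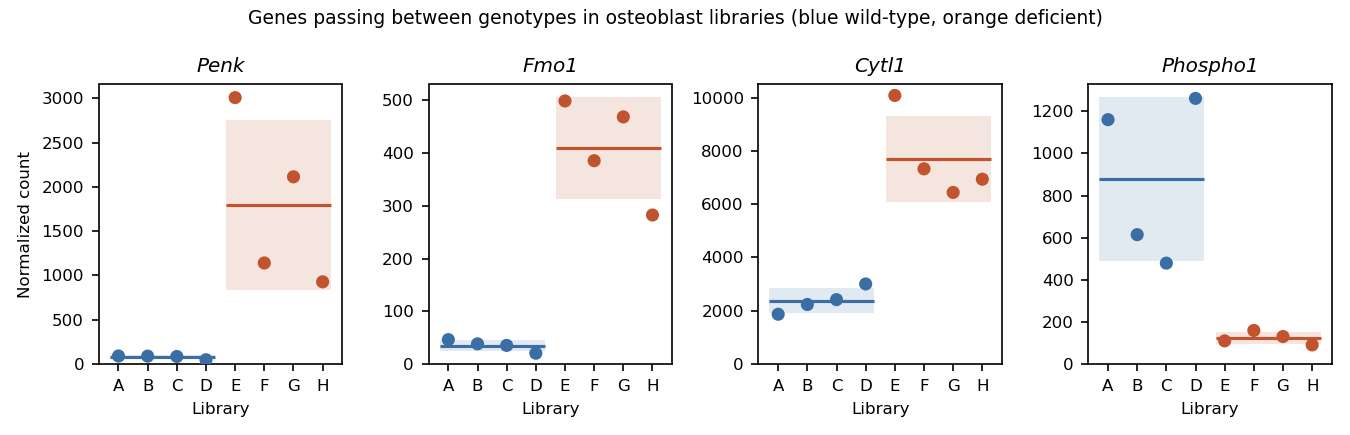
Normalized counts of the 4 passing genes in OB libraries A to D (blue, wild-type) and E to H (orange, deficient); points are libraries, lines are means of 4 libraries and bands are 1 SD. Groups do not overlap for any of the 4 genes, with Penk between 49.2 and 91.1 in wild-type and 928 and 3007 in deficient libraries.

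Under 20 alternatives to the main analysis and the analysis itself, Penk and Fmo1 passed in 21 of 21, Cytl1 in 19 and Phospho1 in 17. The log2 fold change of Penk ran from 4.08 to 4.64 over these settings, that of Fmo1 from 3.296 to 3.69, that of Cytl1 from 1.51 to 1.81 and that of Phospho1 from -2.99 to -2.53. With the number series of the animals as a term, the limma adjusted p was 0.00124 for Penk, 5.0e-04 for Fmo1, 0.0305 for Cytl1 and 0.0467 for Phospho1. The number of passing genes was less stable. The limma test called 4 genes without a filter (0.0206%) and with a filter of 50 (0.0336%), and 6 with a pseudocount of 5 (0.0422%). It called 16 after quantile normalization (0.112%), 9 higher (0.0633%) and 7 lower (0.0492%). It called 75 with library weights (0.527%), 134 with the blood progenitor level as a covariate (0.942%), 9 with the number series (0.0633%) and 24 in a fit of all 16 libraries (0.154%). By edgeR 4 genes passed (0.0281%), and by DESeq2 191 (1.34%), 112 higher (0.787%) and 79 lower (0.555%). Leaving out wild-type A, B or D or deficient G gave 3 genes each (0.0213% in each case), and leaving out wild-type C gave 7 (0.0495%). Without deficient E there were 20 (0.142%), without deficient F 30 (0.213%) and without deficient H 108 (0.765%), 87 higher (0.616%) and 21 lower (0.149%). Without E and F together there were 88 (0.634%), 17 higher (0.123%) and 71 lower (0.512%).

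**Figure D3:**
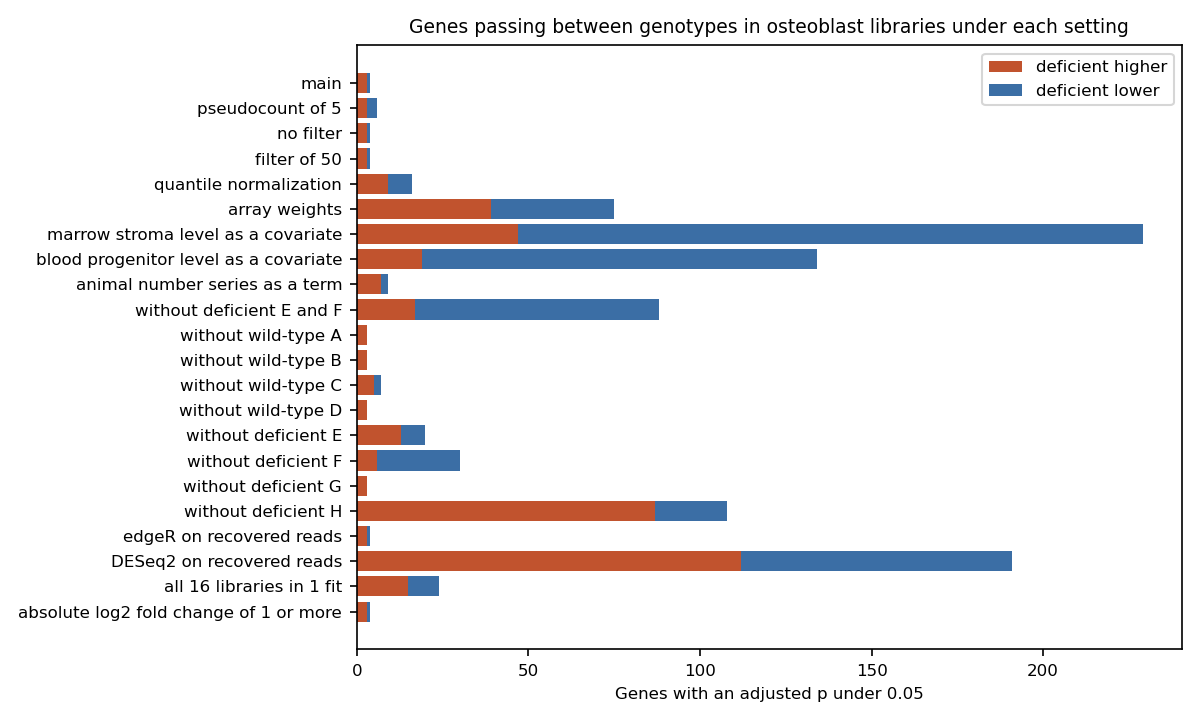
Number of genes with an adjusted p under 0.05 between genotypes in OB libraries under the main analysis and each alternative setting; orange is deficient higher, blue deficient lower. Most bars stand at 3 to 30 genes, with 229 when the marrow stroma level is a covariate, 191 by DESeq2, 134 with the blood progenitor level as a covariate, 108 without deficient H, 88 without deficient E and F and 75 with library weights.

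Below the threshold, the genes with the smallest p among the higher ones included Galnt15, Cirbp, Apod, Wfikkn2, Igf2, Foxp2 and Nox4 (limma adjusted p from 0.0874 to 0.0989). None passed in the main analysis. Galnt15, a glycosylation enzyme gene, read 39.3, 35.8, 20.3 and 11.01 in A to D and 1332, 143, 545 and 394 in E to H (4.18 ± 0.63). Apod, which encodes the lipid carrier apolipoprotein D, read 516, 358, 344 and 136 in A to D and 19998, 2898, 3045 and 3266 in E to H (4.00 ± 0.63). In both genes the groups were apart, and E stood above the other 3 deficient libraries. The insulin-like growth factor gene Igf2 read 354, 399.9, 303 and 546 against 1599, 2364, 1378 and 792 (1.86 ± 0.30). The NADPH oxidase gene Nox4 read 43.2, 48.1, 68.6 and 60.2 against 911, 179, 314 and 251 (2.62 ± 0.43). The cold-inducible RNA-binding protein gene Cirbp had the tightest groups, with 615 to 674 in wild-type and 842 to 889.7 in deficient libraries (0.40 ± 0.06). The values of Foxp2, a forkhead transcription factor gene, were 42.3 to 55.8 in wild-type and 94.0 or more in each deficient library (1.47 ± 0.24).

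The lower genes closest to the threshold included, beside Abi3, Arsi, Smpd3, Kera, Col27a1, Car12 and Tgfbi. Arsi, a sulfatase gene, read 97.4, 126, 56.5 and 114 in A to D and 6.61, 9.12, 1.46 and 0.752 in E to H (-4.48 ± 0.59, limma adjusted p = 0.0665). Smpd3, the neutral sphingomyelinase needed for bone and cartilage mineralization, read 3486, 1258, 1371 and 4709 against 81.5, 255, 281 and 42.8 (-4.18 ± 0.64, limma adjusted p = 0.0874). Kera, the proteoglycan gene keratocan, read 196, 234, 119 and 191 against 2.94, 33.2, 3.66 and 0 (-5.17 ± 0.88, limma adjusted p = 0.103). In all of these genes the genotypes were apart. Col27a1 and Car12, a fibrillar collagen and a carbonic anhydrase gene, had log2 fold changes of -2.18 ± 0.35 and -2.60 ± 0.44, and Tgfbi, a matrix adhesion protein gene, of -0.50 ± 0.08, with 1029 to 1264 in wild-type and 721 to 813 in deficient libraries.

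The longest 3′ UTR of each gene (GENCODE M21) was searched for the letters ACCAAAG, the exact complement of the miR-9-5p seed, on the transcript strand. Of 12873 tested genes with a 3′ UTR, 1994 (15.5%) held at least 1 match. Of 20 genes, the 4 that passed and those with the smallest p at a mean count of 50 or more, up to 10 per direction, the match was present in 2 of the 10 higher genes, Foxp2 and Nox4 with 2 matches each, and in 3 of the 10 lower ones, Phospho1, Tgfbi and Col27a1. The median UTR length was 1036 bases in these 20 genes and 1364 in all. The matches are printed with their flanks, 29 bases each, because they show which of the genes closest to or past the threshold carry one. The capitals mark the match, and positions count from the first base of the UTR.
Phospho1, 680 to 686: ccagggacttcACCAAAGtcgtcccctcc
Foxp2, 870 to 876: tacagctgcaaACCAAAGccaactctaac
Foxp2, 1560 to 1566: ttttcagtcaaACCAAAGttacatataat
Nox4, 918 to 924: gtcctactgaaACCAAAGcaacatttggt
Nox4, 2329 to 2335: tatccttaaaaACCAAAGagctttgtatc
Tgfbi, 203 to 209: atgtttttgaaACCAAAGagcacacttca
Tgfbi, 705 to 711: gtaataataaaACCAAAGaaacaaacacc
Col27a1, 1654 to 1660: cccaagaaccaACCAAAGagccagtcaaa
Penk, Fmo1 and Cytl1, the genes that rose, held no match in UTRs of 308, 782 and 525 bases. Of 11 tested genes that the literature names as miR-9 targets, 0 passed in limma (2 at an unadjusted p under 0.05, 1 per direction), and their median log2 fold change was 0.00. The deacetylase gene Sirt1 stood at 953 to 1193 in wild-type and 1169.5 to 1607 in deficient libraries (0.34 ± 0.11), while Socs5, a suppressor of cytokine signalling, stood at 530.4 to 604 and 455 to 491 (-0.23 ± 0.07). For Foxo1, a forkhead transcription factor gene, the log2 fold change was 0.03 ± 0.09.

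In the gene groups that follow, a member counts as apart when its wild-type and deficient ranges do not overlap. This held for 778 of the genes tested (5.47%), 352 higher in the deficient libraries (2.47%) and 426 lower (2.99%).

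Bone matrix genes were mostly lower in the deficient libraries, though none passed on its own. Of 20 listed genes, 19 were tested, 0 passed in limma, 14 had a value below 0, 13 of these at an unadjusted p under 0.05, and 9 lay apart and lower. Their median log2 fold change was -1.29, beside -0.02 for all genes. The collagen I gene Col1a1 read 156742, 198771, 88879 and 134052 in A to D and 25026, 50379, 48660.3 and 8330.2 in E to H (-2.38 ± 0.52, limma adjusted p = 0.204). Its levels were lowest in H. The osteocalcin genes Bglap and Bglap2, near-identical copies between which reads could be split, had log2 fold changes of -3.74 ± 1.099 and -3.73 ± 0.88 (limma adjusted p = 0.361 and 0.252).

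The bone matrix list was not uniform. Spp1, the osteopontin gene, read 3876, 4474, 2806 and 6185 in A to D and 14926, 8354, 5904 and 2535 in E to H (0.66 ± 0.46). Mmp13, the collagenase of bone and cartilage, read 1925, 1536, 881 and 921 against 4085, 5108, 3056 and 1136 (1.23 ± 0.44, limma adjusted p = 0.435). Both genes overlapped between genotypes. Without E and F the median of the list was -1.63 and 2 members passed lower (Kera and Tmem119), and the value of Spp1 turned to -0.11. Without H the median was -0.97, and Col1a1, Bglap2, Kera and Cpz passed lower while Mmp13 passed higher. H had the lowest bone matrix level and weighs more without E and F, so the direction of both shifts was largely set in advance.

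Among 12 mineralization genes, Phospho1 was the member that passed and Smpd3 the other one that lay apart. The median of the list was -0.16, and it was -0.62 without E and F and -0.05 without H. Phospho1 and Smpd3 passed in both of these settings, and Alpl joined them with the stroma level as a covariate (-2.03, limma adjusted p = 0.00137). Alpl, the tissue-nonspecific alkaline phosphatase gene, read 4131, 2337, 2316 and 2759.7 in A to D and 1222, 2547, 1129 and 283 in E to H (-1.49 ± 0.55, limma adjusted p = 0.446), with F inside the wild-type range. Dmp1, a phosphoprotein gene of osteocytes, differed by -1.25 ± 0.45 (0.436). The phosphate and pyrophosphate transporters Slc20a1, Slc20a2 and Ank lay between -0.10 and 0.06.

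No transcription factor of the list that directs osteoblast formation passed. Of 10 tested, 0 passed in limma (1 at an unadjusted p under 0.05). Their median was -0.01, and it was -0.48 without E and F and -0.0027 without H. Runx2, the master regulator of the lineage, read 1662, 1643, 1544 and 1619.5 in A to D and 1356, 2060.1, 1399 and 1401 in E to H (-0.08 ± 0.12). Sp7, which acts after Runx2, read 349.6, 306, 177 and 259 against 210.1, 255, 135 and 64.6 (-0.84 ± 0.39, limma adjusted p = 0.564), and was 1 of 2 members that passed lower with the stroma covariate (-1.23, limma adjusted p = 0.00739).

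Cartilage genes showed the largest shift downward of the lists examined by median. Of 19 tested, 17 had a value below 0, 12 of them at an unadjusted p under 0.05, and 8 lay apart and lower, while the passing member, Cytl1, rose. The median log2 fold change was -1.60, and it was -1.98 without E and F and -1.15 without H. Col2a1, the collagen II gene, read 303804, 128638, 111103 and 286650 in A to D and 36826, 17701, 38279 and 16362 in E to H (-2.89 ± 0.40, limma adjusted p = 0.0765). It took 2.39, 1.04, 0.911 and 2.28% of all normalized counts in A to D and 0.305, 0.146, 0.319 and 0.140% in E to H. It passed without E and F (-2.91, limma adjusted p = 0.0358), without H (-2.68, 0.0322) and with the stroma level as a covariate (-2.96, 0.006).

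The other cartilage collagens had the same sign. Col11a1 read 30553, 16678, 11796 and 33754 in A to D and 5857, 5610.4, 6637 and 2598 in E to H (-2.12 ± 0.38, limma adjusted p = 0.112). For Col9a3, a collagen IX gene, the log2 fold change was -2.25 ± 0.44, and for Col10a1, the collagen of hypertrophic cartilage, it was -3.73 ± 0.98. Within the wild-type group, A and D read higher than B and C in all 4 of these collagen genes. The same order held for Phospho1, Abi3, Smpd3, Col27a1, Car12 and Syt8, and not for Col1a1, Arsi, Kera or Tgfbi. Sox9, the master transcription factor of chondrocytes, overlapped between genotypes with 1016 to 2080.3 in wild-type and 659.9 to 2226 in deficient libraries (-0.30 ± 0.34). Chad, a cartilage leucine-rich protein gene, read 15310.2, 9507, 11641 and 10011 against 21818, 14499, 20064 and 8672 (0.42 ± 0.27). How far the cartilage values, and those of Phospho1 and Smpd3, reflect the number of chondrocytes in a sort was not tested.

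Tendon and joint-lining genes had a median of -0.60, with 0 of 12 passing in limma (4 at an unadjusted p under 0.05, all lower) and 3 apart and lower. The median was -0.99 without E and F and -0.27 without H. Tnmd, which encodes the tendon protein tenomodulin, read 403, 418, 361 and 813 in A to D and 137, 201, 125 and 42.8 in E to H (-2.09 ± 0.44, limma adjusted p = 0.182). It passed without E and F (-2.67, limma adjusted p = 0.0376), without H (-1.64, 0.0372) and with the stroma covariate (-2.42, 0.00489). The lubricin gene Prg4 had a log2 fold change of 0.35 ± 0.47.

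No gene of the glucocorticoid-induced list passed, though most had values above 0. Of 19 tested, 0 passed in limma, 18 had a value above 0, 12 at an unadjusted p under 0.05, and 10 lay apart and higher, with a median of 1.04. Klf15, a transcription factor gene, read 7.07, 14.3, 13.6 and 16.9 in A to D and 788, 66.4, 135 and 129 in E to H (3.71 ± 0.66, limma adjusted p = 0.112). Serpina3n, a protease inhibitor gene, read 90.3, 54.6, 46.7 and 65.3 against 1051, 535, 165 and 356 (2.76 ± 0.48, 0.112). Pdk4, which restrains pyruvate oxidation, read 99.0, 116, 79.9 and 101 against 1477, 269, 243 and 238 (1.98 ± 0.52, 0.290). E was highest of the deficient libraries in each of these genes.

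Fkbp5, whose protein binds the chaperone complex of steroid receptors, read 942 to 972 in wild-type and 2468, 1191, 1294 and 1276 in deficient libraries (0.63 ± 0.20, limma adjusted p = 0.379). The period gene Per1 had a smaller value, 0.13 ± 0.07, and Cdkn1c, a cell cycle inhibitor gene, was the member below 0 (-0.21 ± 0.53). Without E and F the median of the list was 0.53, and Fkbp5 (0.42, limma adjusted p = 0.0248), Klf15 (3.31, 0.0165), Mt1 (0.78, 0.0467) and Pdk4 (1.29, 0.0322) passed. Without H it was 1.28, and Tsc22d3 and Serpina3n passed. With the stroma level as a covariate it was 0.83, and Klf15 and Serpina3n passed.

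Most marrow stroma genes, and most factors they supply to blood cells, overlapped between genotypes. Of 20 stroma genes, 0 passed in limma (4 at an unadjusted p under 0.05) and 1 lay apart, beside 5.47% of all genes tested. The median was 0.68. It turned to -0.06 without E and F and rose to 1.20 without H. E, F and H were singled out by the level of these same 20 genes, so the direction of these shifts was fixed in advance. The chemokine gene Cxcl12, which retains blood progenitors in the marrow, read 4979, 2618, 2661 and 1635 in A to D and 10219, 28405, 4614 and 1069.5 in E to H (1.16 ± 0.83, limma adjusted p = 0.692, -0.30 without E and F). Kitl, which encodes stem cell factor, read 313, 204, 146 and 123 against 1394, 1236, 310.0 and 154 (1.53 ± 0.66, limma adjusted p = 0.536). For both genes H lay within the wild-type range or below it, and E and F lay above it.

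Gas6, a ligand of TAM receptor kinases, was the stroma gene that lay apart. It read 1114, 675, 622 and 543 in A to D and 9188, 4652, 1912 and 1289 in E to H (2.17 ± 0.54, limma adjusted p = 0.270). It passed without H (2.61, limma adjusted p = 0.0388) and with the stroma level, of which it is itself a part, as a covariate (1.70, 0.024). Of 24 niche factors tested, 0 passed in limma (4 at an unadjusted p under 0.05). Gas6 lay apart and higher, and the cytokine gene Lif apart and lower. The median of the list was 0.42, and it was -0.25 without E and F and 0.65 without H. Igf1, Ptn and Wnt5a passed lower without E and F, and Gas6 and Vcam1 passed higher without H. The niche list shares Gas6 with the stroma list. The mean log2 level of the niche list was above every wild-type library in E and F (8.085 and 8.313) and lowest of all in H (6.53). The direction of these shifts was thus also largely set by the choice of libraries. Il7, the cytokine that B-cell progenitors need, read 25.9, 31.2, 17.3 and 11.7 against 21.3, 69.7, 18.3 and 19.5 (0.41 ± 0.49), so 3 of the deficient libraries lay within the wild-type range. Igf1, a growth factor of bone and marrow, read 450.2, 325, 286 and 409 against 342, 643, 138 and 98.5 (-0.62 ± 0.51, limma adjusted p = 0.727). The B-cell chemokine gene Cxcl13 was at 0 in 7 of the 8 libraries and at 3.26 in F, below the filter.

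Blood progenitor genes stood at nearly the same level in both genotypes. Among 17 blood progenitor genes, 0 passed in limma and 0 had an unadjusted p under 0.05, with log2 fold changes from -0.21 to 0.04. Their median was -0.12, and it was 0.01 without E and F and -0.19 without H. B-lineage genes had a median of -0.22 over the 12 tested, 0 of which passed in limma (1 at an unadjusted p under 0.05), and it was -0.11 without E and F and -0.32 without H. Cd79b, a subunit of the B-cell receptor complex, read 271, 265, 339.8 and 235 in A to D and 202, 212, 208 and 215 in E to H (-0.39 ± 0.12, limma adjusted p = 0.379). The recombinase genes Rag1 and Rag2, which assemble antigen receptors, were at most 14.3 and lay below the filter, so they were not tested between genotypes. Car1, a carbonic anhydrase gene of erythroid cells, read 533, 1713, 583 and 728 against 2745, 2442, 3487 and 2320.2 (1.78 ± 0.32, limma adjusted p = 0.121), while the median of the 19 erythroid genes was -0.03.

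**Figure D4:**
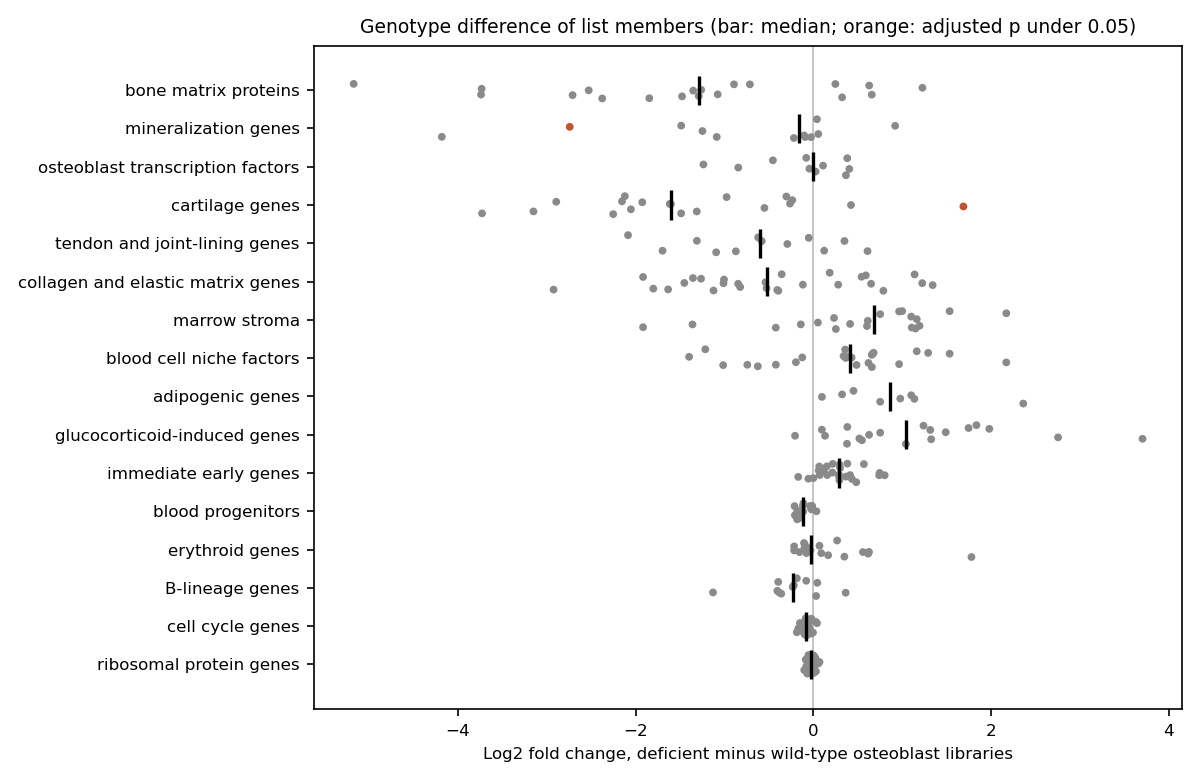
Log2 fold change, deficient minus wild-type OB libraries, of each tested member of 16 gene lists; each dot is a gene, black bars are list medians and orange dots have an adjusted p under 0.05. Medians run from -1.60 for cartilage and -1.29 for bone matrix genes to 0.87 for adipogenic and 1.04 for glucocorticoid-induced genes. They are 0.68 for marrow stroma, 0.42 for niche factors, -0.60 for tendon and joint-lining and -0.53 for collagen and elastic matrix genes. The other lists lie between -0.22 and 0.29.

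**Figure D5:**
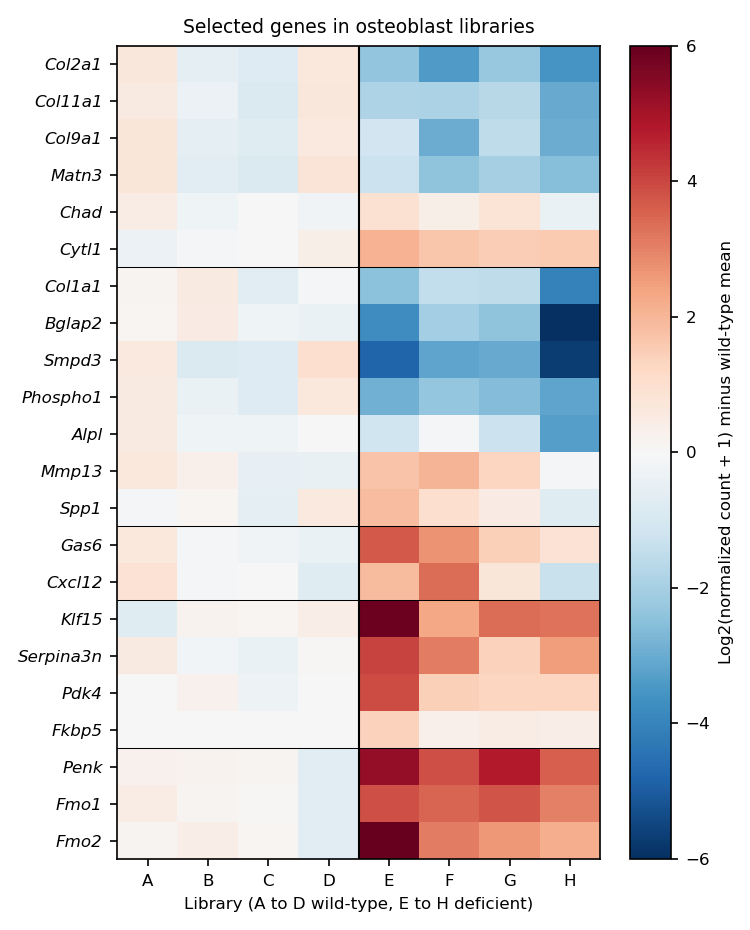
Log2(normalized count + 1) minus the wild-type mean of 22 genes, by library, with wild-type libraries left and deficient libraries right; genes are grouped by role, red is higher, and the genes were chosen after their values were seen. Penk and Fmo1 are high in all 4 deficient libraries, Col2a1 and Phospho1 low in all 4, and Cxcl12 differs in sign between H and the others.

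With the marrow stroma level as a covariate, 229 genes passed (1.61%), 47 higher (0.33%) and 182 lower (1.28%), while 88 passed without E and F. In the collagen and elastic matrix list the calls depended on the libraries used. None of its 27 genes passed in the main limma analysis (13 at an unadjusted p under 0.05, 10 of them lower), and the median was -0.53. With the covariate 13 passed lower (median -0.91), and without E and F 13 passed lower (median -1.41). Without H the calls were higher ones: Fbln1, Fbln2, Thbs1 and Thbs2 passed higher, 0 passed lower in limma, and the median was -0.10. Loxl2, a collagen cross-linking enzyme gene, read 1545, 1271, 791 and 1397 in A to D and 490.0, 739, 317 and 127 in E to H. Its log2 fold change was -1.80 ± 0.46 (limma adjusted p = 0.284) and -2.26 with the covariate (4.81e-04). Postn, the periostin gene of fibrous matrix, overlapped between genotypes, with 6041 to 8066 in wild-type and 1116 to 10318 in deficient libraries (-0.85 ± 0.57), and its value was -1.44 with the covariate (4.62e-04). The covariate is a mean over genes of the same libraries, so these calls describe levels relative to stromal genes.

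The difference between the OB and MSC effects gave few calls, and their number depended on single libraries. Of 15556 genes tested for the difference of effects, 2 passed (0.0129%), Psmb9 and Lrrc66, and 1786 had an unadjusted p under 0.05 (11.5%). Of 16 omissions of 1 library, 11 left 0 genes passing in limma (1308 to 1991 at an unadjusted p under 0.05), while leaving out deficient F of the MSC libraries gave 571, 252 with the OB effect higher and 319 lower. Both genes lie outside the rule for named genes and are named because they passed. Neither is among the genes that passed within OB libraries. The OB log2 fold changes of Col2a1, Smpd3 and Kera were -2.89, -4.18 and -5.17, those in MSC libraries were -3.04, -1.99 and -4.00, and the differences did not pass (limma adjusted p = 0.970, 0.354 and 0.739).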

How the data were processed

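RNA of sorted osteoblasts was poly(A)-selected and sequenced, per the labels' protocols. The deposited signal is a normalized count per gene symbol, in 1 table of 20056 symbols. Per the submitters' processing notes, DESeq2 1.24.0 and genome build mm10 are named, with no role given for either. Not given in the sources used here are the aligner, the counting program, its annotation and strand setting, and any filter. All deposited values were whole multiples of 1 step per library within 0.01, which gave back whole reads for each gene. All 8 OB columns were used. As a check for the same library under 2 names, replicate pairs were compared: the chi-square of their counts, divided by its degrees of freedom, was 10.3 to 84.9.

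The main test was limma 3.58.1 under R 4.3.3, with a mean-variance trend and moderated variances, on log2(normalized count + 1). It covered genes with a normalized count reaching 10 in 4 or more OB libraries. Passing means an adjusted p (Benjamini-Hochberg, over all genes tested) under 0.05. The difference of genotype effects, OB minus MSC, was an interaction term over 16 libraries. The recovered counts were also tested with the quasi-likelihood test of edgeR 4.0.16 after TMM scaling and with DESeq2 1.42.0. Other alternatives changed the pseudocount to 5, the filter to 50 or to none, or used quantile normalization, library weights, a stroma or blood progenitor covariate, the number series of the animals, and leaving out libraries. Simulated counts were drawn for each gene independently, with known changes set in genes at a mean of 50 or more. Of these, 41.8% of 1.5-fold, 76.1% of 2-fold and 95.5% of 4-fold changes passed between OB genotypes. The simulation held no difference in stromal RNA between libraries, so these shares may not hold for the real ones. In the real libraries the 16.4-fold ratio of the Smpd3 means did not pass. A gene that did not pass may therefore still differ.

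The members and the 36 gene lists were chosen with earlier results of these data known, and p-values measure the spread between these libraries only. The naming rule took the passing genes, the smallest p up to 10 per direction at a mean of 50 or more, the leading members of each list, 5 genes per direction passing with the stroma covariate, and genes fixed by name, 74 in all. The text names those that carry a comparison and further list members by value. Some list members are not reported here. MSC and OB libraries share animal numbers, which are not taken to pair them. Sequences are from RefSeq (GRCm38.p6) and GENCODE M21 (GRCm38), the same assembly as mm10.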

Additional observations from a re-analysis of the deposited data

Results flagged for a closer look

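Of 140 groups of 4 libraries examined for a library far from the others, 11 held one, where chance gives about 1 in 20. Among passing genes, Penk in wild-type D (49.2) lay below the other 3 wild-type libraries, which read 85.9 or more. Deficient E was far above its group for Apod (19998), Fkbp5 (2468) and Cirbp (889.7). Deficient F was far above its group for Kera (33.2), Col15a1 (393), Runx2 (2060.1) and Il7 (69.7), and deficient G for the platelet chemokine gene Ppbp (10.97). Wild-type B was far above its group for Car1 (1713) and for the heat shock gene Hspa1a (700.4).

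The genotype effect differed between OB and MSC libraries, by limma's interaction test, for 2 genes. Psmb9, a subunit of the immunoproteasome that trims peptides for antigen presentation, read 628, 593, 686 and 648 in wild-type and 466, 577, 656 and 710 in deficient OB libraries (log2 fold change -0.10 ± 0.12). In MSC libraries it stood at 158 to 221 in wild-type and 52.6 to 64.4 in deficient mice (-1.61 ± 0.26), and the difference was 1.51 (limma adjusted p = 0.0423). Lrrc66, a leucine-rich repeat gene, read 22.0 to 28.6 in wild-type and 6.76 to 13.2 in deficient OB libraries, and in MSC libraries 0 in all wild-type and 10.1 ± 5.97 in deficient mice. The difference was -4.63 (limma adjusted p = 0.0423). It rests on low values: the deficient MSC libraries read 6.54 to 19.0, and a count of 0 in MSC libraries allows up to 3.52 to 4.51. Both calls were lost with a pseudocount of 5, where 0 genes passed.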

How the results depend on the processing

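Of 14229 genes tested between OB genotypes, 4 passed in the main limma analysis, 16 after quantile normalization, 75 with library weights, 229 with the marrow stroma level and 134 with the blood progenitor level as a covariate, 9 with the animal number series as a term, 88 without deficient E and F, 191 by DESeq2 and 24 with all 16 libraries in 1 fit. Leaving out 1 library gave 3 to 108. At an unadjusted p under 0.05 there were 1274 genes in the main analysis and 2267 without deficient H. For the difference of OB and MSC effects, 2 genes passed, 0 with a pseudocount of 5 (1833 at an unadjusted p under 0.05) and 0 to 571 when 1 library was left out, 571 without deficient F of the MSC libraries. With the animal number as a replicate block over OB and MSC libraries (consensus correlation 0.142) it was 3. Deviations from the group means correlated with r from 0.0505 to 0.332 between same-numbered libraries, and 6 of 8 numbers had their highest correlation with the library of that number, a hint from the data and not from the design. No paired analysis was possible between genotypes because they share no animal number. Single genes changed sign without E and F for Spp1 (-0.11), Cxcl12 (-0.30), Il7 (-0.0925), Tnfsf11 (-0.65), Foxo1 (-0.0267) and Lepr (-0.23). With the stroma covariate they did for Tnfsf11 (-0.0395) and Foxo1 (-0.0160), and with the blood progenitor covariate for Tnfsf11 (-0.295) and Foxo1 (-0.067). Leaving out 1 library gave -0.03764 to 0.607 for gene Il7 and -0.0333 to 0.0971 for Foxo1. The cause was not tested. Of the values of single genes under alternatives, 1180 kept their direction and side of the threshold, 181 came past it, 6 no longer passed and 14 changed sign.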

Other observations

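Several other gene groups were examined in the OB libraries, and none had a passing member in limma. Core clock genes were above 0 in 14 of 15, with a median log2 fold change of 0.26 that was -0.02 without E and F. Per2, a repressor of the clock, read 613, 621, 606 and 579 in A to D and 1014, 747, 813 and 632 in E to H (0.39 ± 0.13, limma adjusted p = 0.389). Immediate early genes were above 0 in 25 of 27, with a median of 0.29 that was -0.02 without E and F, and 2 had an unadjusted p under 0.05. Adipogenic genes were above 0 in 8 of 8 tested (2 at an unadjusted p under 0.05), with a median of 0.87 that was 0.12 without E and F. Fabp4, a fatty acid carrier gene, was the adipogenic member that lay apart, with 3.01 to 24.1 in wild-type and 41.7 to 261 in deficient libraries (2.36 ± 0.72, limma adjusted p = 0.379).

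Interferon-response genes were below 0 in 25 of 29 (4 at an unadjusted p under 0.05), with a median of -0.16 that was -0.08 without E and F. Antigen presentation genes were below 0 in 16 of 16 (1 at an unadjusted p under 0.05), with a median of -0.10 that was 0.003 without E and F. Irf7, a regulator of interferon genes, read 282, 262, 313 and 319 in A to D and 223, 249, 214 and 243 in E to H (-0.34 ± 0.11, limma adjusted p = 0.379). Markers of other cell types were also without a passing member in limma. The medians were -0.52 for 17 neutrophil genes, 0.00 for 14 macrophage genes, -0.23 for 7 T and NK cell genes, -0.18 for 5 osteoclast genes and -0.13 for 9 megakaryocyte genes. They were -0.04 for 12 endothelial genes, 0.65 for 9 mural cell genes and 0.39 for 5 skeletal muscle genes. Over these lists, 1 gene was higher and 7 were lower at an unadjusted p under 0.05. The neutrophil level was highest in wild-type B (9.98, the others 7.87 to 8.73) and the mural level in deficient E (10.08, the others 7.73 to 8.88), and their part in other results was not tested. Secretory pathway genes had a median of -0.12 over 27 and glycolysis and hypoxia genes of -0.11 over 18 (6 and 5 at an unadjusted p under 0.05).

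The 76 ribosomal protein genes had a median of -0.03, the 80 oxidative phosphorylation genes of -0.06 and the 26 cell cycle genes of -0.08. Among Wnt and BMP antagonists, Fst, the activin-binding protein follistatin, read 95.1, 78.7, 70.8 and 71.2 against 499.6, 499.6, 298 and 108 (1.92 ± 0.43, limma adjusted p = 0.215). Dkk1, a Wnt inhibitor gene, read 11.8, 11.7, 15.1 and 10.3 against 0, 0.651, 3.66 and 1.503 (-2.64 ± 0.60, limma adjusted p = 0.218), values near the limit of 1.95 to 2.36 that a count of 0 allows.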
